A study of Mus musculus with 2 samples.

Results

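The smooth muscle cells of brain vessels were described from 2 single-cell libraries of mouse brain carrying a glioblastoma graft. A cell counted as a member when at least 2 of the 4 contractile genes Acta2, Tagln, Myh11 and Cnn1 had a UMI (a uniquely tagged RNA molecule). It could hold at most 1 of the endothelial genes Cldn5, Flt1, Cdh5 and Pecam1, and at most 1 of P2ry12, Mog, Aqp4 and Dcx, which mark microglia, oligodendrocytes, astrocytes and neuroblasts. The rule found 277 members among 13466 kept cells: 93 of 5398 in the cKO library and 184 of 8068 in the control library. The members were thus chosen by the measured UMIs of these 12 genes, whose levels are given as a description.

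The cKO host carried Cx3cr1 CreER/+ with Plxnb2 fl/fl, and the control host carried Cx3cr1 CreER/+ with Plxnb2 fl/+. The control is therefore a floxed heterozygote with the same CreER allele, although its label also calls it wild type. Both hosts received tamoxifen at 100 mg/kg every other day, beginning 3 days ahead of an intracranial graft of KR158, a mouse glioblastoma line, and brain within about 1 mm of the graft site was taken at 8 weeks. Cx3cr1, which drives the Cre recombinase, is a gene of microglia and other myeloid cells and not of vessel walls, so smooth muscle is not the cell type aimed at. The sources used here do not state the age or sex of the hosts. There was 1 library per genotype, so genotype, animal and preparation cannot be told apart, and no test between the libraries was possible.

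Smooth muscle cells wrap arteries and arterioles and set their diameter. Calcium entering the cell activates myosin light chain kinase, which lets the myosin motor pull on actin filaments, and nitric oxide signalling through cyclic GMP relaxes them again. The contractile genes are driven together by serum response factor with its partner myocardin, which bind the CArG box. Pericytes, the mural cells of capillaries, share many receptors with smooth muscle but carry far less of the contractile apparatus.

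The deposited cKO matrix held 63785513 UMIs in 1513730 barcodes with a UMI and had not been filtered, whereas the control matrix held 64756949 UMIs in 10942 barcodes, none below 500 UMIs. The same limits were then set on both: at least 1000 UMIs, at least 500 genes and at most 10% mitochondrial UMIs. Kept cells had a median of 6061.5 UMIs in the cKO and 4749.5 in the control library. The libraries shared 8 barcodes among kept cells, of which 1 was a member.

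Plxnb2 (ENSMUSG00000036606, mm10 chromosome 15, 89155549 to 89180788, minus strand), the floxed gene, was measured at 38.5 CPM in cKO and 192 CPM in control microglia (CPM is UMIs per 1000000 UMIs of the summed cells). Among all members it stood at 194 CPM (170 to 219; 251 UMIs) in the cKO library and 205 CPM (188 to 223; 561 UMIs) in the control library. These intervals, like all others here, are exact 95% intervals that cover counting error only. The library counts 3′ ends, and where the deleted exons lie relative to the counted end was not stated, so a remaining signal does not check the deletion.

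The rule gathered more than 1 kind of cell in both libraries, and its members were split into 3 groups. Contractile members had at least 3 of the 4 rule genes and fewer than 3 of 6 ependymal markers (Foxj1, Ccdc153, Tmem212, Dynlrb2, Rarres2, Pifo), and numbered 53 cKO and 75 control cells. They made up 57.0% of cKO members (46.3 to 67.2) and 40.8% of control members (33.6 to 48.2). Ependymal-marked members carried at least 3 of the ependymal markers, genes of the ciliated cells that line the ventricles, and numbered 30 cKO and 78 control cells, or 32.3% and 42.4% of members. The remaining 10 cKO and 31 control members had 2 rule genes and few ependymal markers, and are a leftover group rather than 1 kind of cell. This split was made after the values had been seen.

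The 3 groups were defined by these genes, so the UMIs of the rule genes and ependymal markers describe them only, and their ranges overlap. Contractile members held a median of 170 rule-gene UMIs per cell in the cKO library (range 9 to 453) and 196 in the control library (4 to 672). Ependymal-marked members held 15 (2 to 45) and 16.5 (2 to 143), while their 6 ependymal markers summed to medians of 235.5 UMIs in cKO and 221.5 in control cells, against 2 in the contractile members of each library. They were also much deeper cells, with medians of 27859.5 UMIs in the cKO and 25185 in the control library, against 5353 and 5941 in contractile members. The remaining members had a median of 2 rule-gene UMIs in each library, the fewest the rule admits. Among contractile genes that the rule did not use, Tpm2, a tropomyosin, stood at 6042 CPM in cKO and 5674 CPM in control contractile members, at 18.9 and 17.7 CPM in ependymal-marked members and at 109 and 158 CPM in the remaining members. By these summed levels the label smooth muscle was borne out by the contractile members and not by the other 2 groups. Single remaining members, however, held up to 23 rule-gene UMIs.

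**Figure D1:**
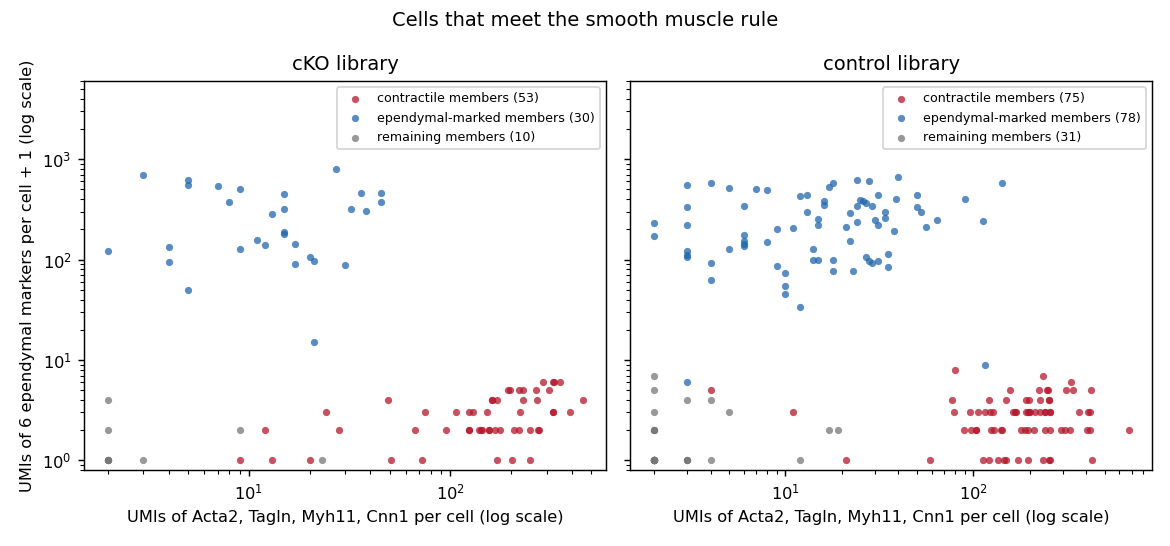
Each point is 1 cell that met the rule, in the cKO library (left) and the control library (right). The x axis gives UMIs of the 4 rule genes per cell and the y axis UMIs of the 6 ependymal markers plus 1, both on log scales. Contractile members sit at the lower right with medians of 170 (cKO) and 196 (control) rule-gene UMIs, and ependymal-marked members at the upper left with medians of 15 and 16.5.

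By combination of rule genes, all 53 cKO and 75 control contractile members held Acta2 (smooth muscle actin), Tagln (transgelin, an actin-binding protein) and Myh11 (smooth muscle myosin heavy chain), and 20 cKO and 38 control cells also held Cnn1 (calponin, which restrains the myosin motor). In ependymal-marked members the usual pair was Acta2 with Tagln and no other, in 26 of 30 cKO and 62 of 78 control cells. Myh11 had a UMI in 10.0% of cKO (2.11 to 26.5) and 5.13% of control (1.41 to 12.6) ependymal-marked members. Microglia, which should lack Acta2, were taken with at most 1 rule gene. Among them 2.27% of cKO and 6.92% of control cells had an Acta2 UMI, at median depths of 4857.5 and 3500.5 UMIs. So 1 UMI of a rule gene is within the background of these libraries.

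At equal depth the ependymal-marked members mostly left the class. After each cell was thinned to 1000 UMIs, all 53 cKO and 74 of 75 control contractile members still met the rule, against 2 of 30 and 8 of 78 ependymal-marked members. Contractile members were chosen with at least 3 rule genes, so this contrast follows in large part from how the groups were split. Acta2 kept a UMI in 36.7% of thinned cKO (19.9 to 56.1) and 35.9% of thinned control (25.3 to 47.6) ependymal-marked members. In microglia thinned the same way the share was 1.14% and 2.61%, and in ependymal cells outside the class, which had been kept out for having at most 1 rule gene, it was 3.75% and 4.48%. Over all cells with at least 3 ependymal markers, whether or not the rule took them, 18 of 129 thinned cKO cells (8.48% to 21.2%) and 51 of 389 thinned control cells (9.92% to 16.9%) had an Acta2 UMI. This share was above that of microglia in both libraries, and the intervals did not overlap. The microglia, however, were taken with at most 1 rule gene, a limit that lowers their share and that these cells did not have. Its part in the gap was not tested.

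The step from 2 to 3 rule genes was steep. Myl9, a myosin light chain the rule did not use, stood at 140 CPM in cKO and 49.1 CPM in control cells with 1 rule gene, just outside the class. It reached 194 and 157 CPM in cells with exactly 2, just inside it. In cells with 3 rule genes it was at 5207 CPM in the cKO and 2534 CPM in the control library, and in cells with all 4 at 7280 and 5690 CPM. Most of the contrast therefore lay inside the class, between its cells with 2 and with 3 rule genes.

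Members made up 1.72% of kept cKO cells (1.39 to 2.11) and 2.28% of kept control cells (1.97 to 2.63), but the contractile members alone made up 0.982% (0.736 to 1.28) and 0.930% (0.732 to 1.16). The difference in the whole class lay in the ependymal-marked members, at 0.556% of cKO (0.375 to 0.792) and 0.967% of control (0.765 to 1.21) cells, and in the remaining members, at 0.185% and 0.384%. Ependymal cells outside the class differed in the same direction, at 1.48% of kept cKO and 3.32% of kept control cells. After thinning, the whole class was 1.43% of cKO cells (77 cells) and 1.19% of control cells (96 cells). Of these, 59 cKO and 86 control cells were members at full depth, and the others met the rule only after thinning. A further 66 cKO cells and 14 control cells held 3 or more rule genes but were kept out by 2 or more endothelial genes. They amounted to 1.22% (0.947 to 1.55) and 0.174% (0.0949 to 0.291) of kept cells, so the endothelial limit took more cells from the cKO library. Cells with at least 3 endothelial genes and at most 1 rule gene were also a larger share there, at 24.3% of kept cKO and 12.3% of kept control cells.

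The contractile apparatus was first read in the contractile members, where Acta2 (ENSMUSG00000035783, chromosome 19, 34241090 to 34255590, minus strand) gave the most UMIs of the 4 rule genes. Its level was 16297 CPM (15843 to 16760) in cKO and 15927 CPM (15570 to 16291) in control cells. Per cell, Acta2 had a lowest value of 1 UMI, a median of 85 and a highest of 224 in cKO cells, and 2, 95 and 364 in control cells. The cells of the 2 libraries overlapped over nearly their whole range. Tagln (ENSMUSG00000032085, chromosome 9, 45929619 to 45936058, minus strand) stood at 12057 and 12754 CPM, and Myh11 (ENSMUSG00000018830, chromosome 16, 14194535 to 14291372, minus strand) at 3394 and 3843 CPM. Cnn1 (ENSMUSG00000001349, chromosome 9, 22099216 to 22109630, plus strand) stood at 203 CPM in cKO and 306 CPM in control cells, and had no UMI in 33 of 53 cKO and 37 of 75 control cells. All 4 are protein-coding genes, and positions are from GENCODE vM21 on the build of the files.

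The CArG box, CC and GG with 6 bases between them that are A or T, was looked for in the 250 bases before the start of 26 contractile-list genes (thin filament and myosin lists) that the RefSeq promoter table of build GRCm38.p6 holds. The box reads the same on both strands. An exact box was found in 3 of the 26 (Vcl, Myl6 and Myl9), against 1.62% of all 27025 genes in the table, and a box or one with a single mismatch among its 6 inner bases was found in 4 of the 26, against 9.78% of all genes. The fourth is Acta2, whose boxes both differ from the motif at 1 base. These 4 windows are shown because they hold a box, with 1 mismatch allowed for Acta2, and not for the level of their genes. Tagln and Myh11 were not among the 26 genes. Capitals mark the boxes. Each window is written 5′ to 3′ on the gene's own strand.
Acta2, chr19:34255382-34255472, minus strand: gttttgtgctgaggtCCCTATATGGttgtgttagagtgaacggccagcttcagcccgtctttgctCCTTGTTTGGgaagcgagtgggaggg
Myl9, chr2:156775288-156775328, plus strand: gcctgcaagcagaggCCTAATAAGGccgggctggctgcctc
Myl6, chr10:128493034-128493074, minus strand: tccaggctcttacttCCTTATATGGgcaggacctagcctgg
Vcl, chr14:20929156-20929196, plus strand: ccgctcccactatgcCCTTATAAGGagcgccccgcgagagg
The boxes of Acta2 begin 84 and 34 bases before its start, that of Myl9 161, that of Myl6 50 and that of Vcl 227 bases before. These starts are those of RefSeq. The Acta2 window lies inside the GENCODE span given above, so the annotations place the start of Acta2 differently. Myl9 has a further box with 1 mismatch that begins 99 bases before its start, outside the window shown. A match describes the letters only, and longer stretches or introns, where such boxes can also lie, were not searched.

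Contractile members were next set beside pericytes. Cells with at least 3 of Kcnj8, Abcc9, Higd1b, Atp13a5 and Vtn and at most 1 rule gene numbered 468 in the cKO and 294 in the control library, but 75.6% and 64.6% of them also held at least 3 of the 4 endothelial genes. The values below use the 101 cKO and 97 control pericytes left by the same endothelial and other limits that the members met. Because the rule genes separate these 2 classes by construction, no test of the difference was made. A gene was compared when a library had at least 30 UMIs and 50 CPM of it in one of the classes, and counted as past the fold at 2-fold or more in the same direction in both libraries. Of 3084 genes compared, 331 (10.7%) were higher in contractile members and 471 (15.3%) lower.

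In the thin filament list 10 of 13 compared genes were past the fold, none lower, and median log2 ratios of 3.47 in the cKO and 3.73 in the control library. The medians over all genes were -0.22 and -0.07. Without Acta2, Tagln and Cnn1, which the selection fixes, 7 of 10 were past the fold, with medians of 2.58 and 2.77. Tpm2, a tropomyosin that lies along actin, stood at 6042 CPM in cKO contractile members against 159.8 CPM in cKO pericytes, and at 5674 against 145 CPM in the control library. Des, which builds the muscle intermediate filament desmin, stood at 789 against 131 CPM and at 707 against 111 CPM. Lmod1, which starts actin filaments in smooth muscle, stood at 526 against 11.6 CPM and at 496 against 30.4 CPM. Cald1 (caldesmon, 2048 against 3146 CPM and 2274 against 2349 CPM) and Vcl (vinculin, 393 against 436 CPM and 397 against 402 CPM) were not past the fold, nor was Tln1 (talin). The Tagln level of cKO pericytes, 279 CPM, came from 2 of 101 cells.

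Of 14 myosin genes 7 were past the fold upward and 1 downward, or 6 and 1 of 13 without the rule gene Myh11. Myl9 stood at 6541 CPM in cKO contractile members against 1397 CPM in cKO pericytes, and at 6123 against 925 CPM in the control library. Mylk, the light chain kinase, stood at 2112 against 395 CPM and 2481 against 314 CPM, and Ppp1r12b, a targeting subunit of the opposing phosphatase, at 463 against 34.9 CPM and 403 against 27.0 CPM. Rgs5, a brake on receptor G proteins that is widely used as a mural cell marker, was the 1 gene lower in both, with 1695 against 4674 CPM and 1212 against 3598 CPM. Against the pericytes as the rule gives them, endothelial-mixed cells included, the log2 ratio of Myl9 was 3.88 and 3.99 in place of 2.23 and 2.73, and that of Rgs5 was -0.57 and -1.18 in place of -1.46 and -1.57. In that comparison 411 of 4147 genes (9.91%) were higher in contractile members and 820 (19.8%) lower.

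**Figure D2:**
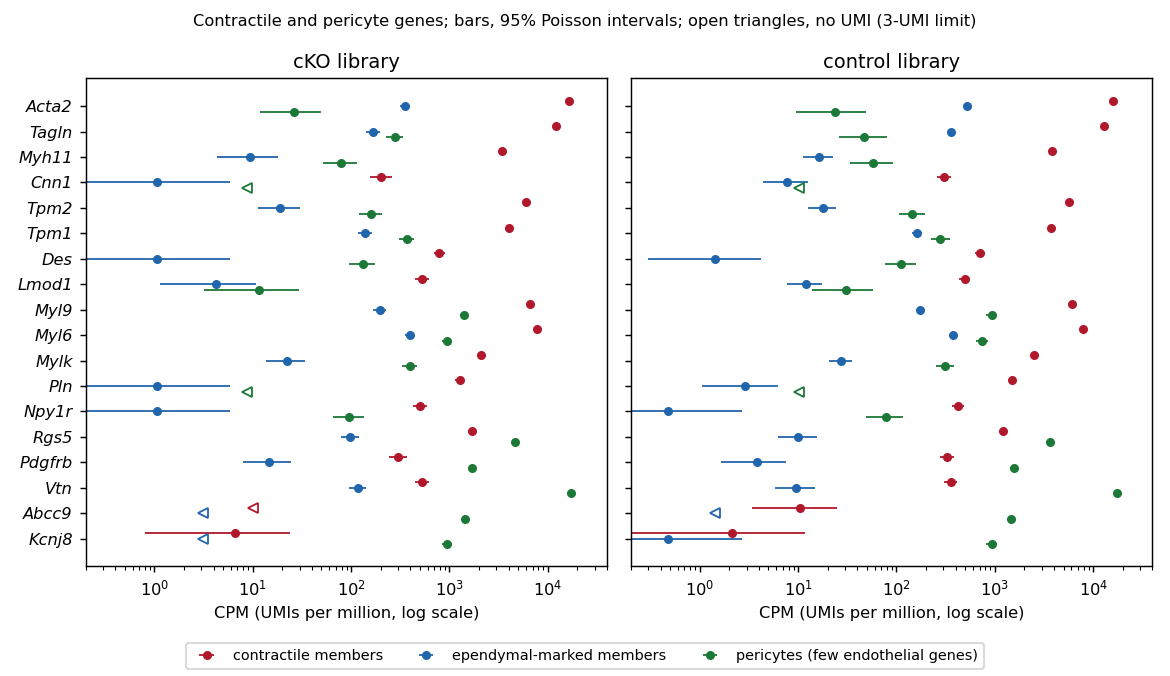
Levels in CPM on a log scale for 18 genes, in the cKO library (left) and the control library (right). Points are summed levels of contractile members, ependymal-marked members and pericytes with few endothelial genes, lines are exact 95% Poisson intervals, and open triangles mark the level of 3 UMIs where a class had none. Acta2 stands at 16297 (cKO) and 15927 (control) CPM in contractile members and at 26.1 and 23.6 CPM in pericytes, and Abcc9 and Kcnj8 show the reverse order.

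Calcium and potassium channels split between the 2 mural classes, with 6 of 18 genes past the fold upward in contractile members and 5 downward. Kcnj8 and Abcc9, which are among the 5 genes that select the pericytes, are 2 of those 5, and without them 6 of 16 were higher and 3 lower. Pln, phospholamban, the inhibitor of the calcium pump of the sarcoplasmic reticulum, stood at 1272 CPM in cKO and 1503 CPM in control contractile members and had no UMI in pericytes of either library, so it was at least 146-fold and at least 148-fold higher (against 3 UMIs in the pericyte sum). Kcnab1, a subunit of voltage-gated potassium channels, stood at 177 CPM against no UMI in cKO pericytes and at 194 against 6.75 CPM in control pericytes. Kcnma1, the pore of the large-conductance calcium-activated potassium channel, stood at 66.6 and 65.5 CPM and had no UMI in pericytes. In the other direction Kcnj8, the pore of the ATP-sensitive potassium channel, stood at 6.66 against 947 CPM and 2.11 against 925 CPM, from 2 UMIs in cKO and 1 UMI in control contractile members. Its regulatory subunit Abcc9 had no UMI in cKO contractile members against 1450 CPM in pericytes, and 10.6 against 1475 CPM in the control library. Itpr2, a calcium release channel, stood at 23.3 against 229 CPM and 21.1 against 253 CPM.

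Receptors split as well, with 6 of 16 past the fold upward and 4 downward. Npy1r, the neuropeptide Y receptor that constricts arteries, stood at 499.6 CPM in cKO contractile members against 95.9 CPM in cKO pericytes, and at 427 against 77.6 CPM in the control library. Ramp1, the partner of the receptor for the dilator CGRP, stood at 223 against 32.0 CPM and 264 against 47.3 CPM. Pde3a, which breaks down cyclic AMP, stood at 486 against 78.4 CPM and 513 against 70.9 CPM. P2ry14, a receptor for UDP-sugars, was lower at 113 against 906 CPM and 103 against 668 CPM, and so was Tbxa2r, the thromboxane receptor, at 23.3 against 273 CPM and 42.2 against 203 CPM. Ednra, the endothelin receptor of mural cells, was close in both classes at 239.8 against 267 CPM and 213 against 287 CPM.

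Of 11 genes of the serum response factor and myocardin list, 1 was past the fold upward and 1 downward. The first was Myocd, myocardin itself, at 103 CPM (31 UMIs) in cKO and 109.8 CPM (52 UMIs) in control contractile members, with no UMI in pericytes of either library. The second was Foxf2, a transcription factor of pericytes, at 16.7 against 134 CPM and 14.8 against 108 CPM. Of 16 genes of PDGF, TGF-beta and angiopoietin signalling, 5 were past the fold upward and 4 downward. Pdgfrb, the receptor that recruits mural cells to vessels, stood at 299.8 against 1699 CPM and 327 against 1559 CPM. Tgfb3 stood at 157 CPM against no UMI and at 224 against 16.9 CPM, and Ltbp1, which tethers latent TGF-beta to the matrix, at 213 against 5.81 CPM and 264 against 6.75 CPM. In the Notch list, 2 of 7 genes were lower, Notch1 (96.6 against 392 CPM and 106 against 290.3 CPM) and its target Heyl (89.9 against 247 CPM and 116 against 257 CPM). Notch3, the mural cell receptor, was at 459.6 against 589.7 CPM and 427 against 618 CPM.

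Matrix genes showed which laminin chains each class carried: 10 of 32 were past the fold upward and 6 downward. Lama5 stood at 139.9 against 2.91 CPM in the cKO library and at 139 against 6.75 CPM in the control library. Lama2 had the opposite order, with 9 UMIs against 147 in the cKO library and 11 UMIs against 100 in the control library. Lama4 stood at 43.3 against 203 CPM and 6.33 against 236 CPM, and Lamc3 at 20.0 against 317 CPM and 40.1 against 209 CPM. Immediate early genes had 9 of 20 higher and none lower, among them Fos at 1252 against 14.5 CPM and 690.5 against 33.8 CPM. Contractile members also had more mitochondrial UMIs, with medians of 7.01% in cKO and 6.58% in control cells, against 4.31% and 4.52% in pericytes. The part of dissociation in the Fos difference was not tested.

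Over all genes, in the lists or not, the 12 set highest above pericytes in both libraries were Acta2, Pln, Sncg, Sorbs2, Palld, Myom1, Csrp2, Myh11, Tagln, Adamtsl1, Tpm2 and Ltbp1. Sorbs2 and Palld, which organise actin bundles, stood at 1006 against 11.6 CPM and 669 CPM against no UMI in the cKO library, and at 1011 against 6.75 CPM and 621 against 3.38 CPM in the control library. Csrp2, a muscle LIM protein, stood at 666 against 5.81 CPM and 735 against 16.9 CPM. Sncg, gamma-synuclein, stood at 829 CPM against no UMI and at 859 against 3.38 CPM. Lowest relative to pericytes were Kcnj8, Abcc9, Pla1a, Itih5, Spp1, Ggt1, Uchl1 and Slc22a8. Fibroblast RNA was higher in the pericytes in the same comparison: 10 fibroblast markers summed to 1386 CPM in cKO and 878 CPM in control pericytes, against 189.8 and 184 CPM in contractile members. In the pericytes 1 cell held 41.3% of those UMIs in the cKO library and 28.1% in the control library. Dcn, a fibroblast gene, was at 616 and 223 CPM in pericytes and had no UMI in contractile members. The part of fibroblast RNA in these differences was not tested.

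Contractile members varied among themselves in some of the genes that separate the mural classes. Cells with a Cnn1 UMI (20 cKO and 38 control) were set beside those without one (33 and 37). Their median depth was greater, at 6421 against 4858 UMIs in the cKO and 6244 against 5425 UMIs in the control library, which by itself makes a Cnn1 UMI more likely to be seen. Of 1393 genes compared, 16 (1.15%) were higher by 2-fold in both libraries and 25 (1.79%) lower. After thinning to 1000 UMIs, Cnn1 had a UMI in 9.43% of cKO (3.13 to 20.7) and 24.0% of control (14.9 to 35.3) contractile members, against 37.7% and 50.7% at full depth.

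Cnn1-detected cells carried more contractile RNA in both libraries. Acta2 stood at 19474 against 13794 CPM in the cKO library and 19406 against 12297 CPM in the control library, and Myh11 at 4105 against 2834 CPM and 4391 against 3271 CPM. Smtn, smoothelin, a gene of fully differentiated smooth muscle, stood at 340.2 against 137 CPM and 380.4 against 159.6 CPM. Ptgis, prostacyclin synthase, stood at 265 against 71.4 CPM and 227 against 82.0 CPM, and Igfbp4, which binds insulin-like growth factors, at 265 against 71.4 CPM and 190.2 against 47.5 CPM. Crispld2, Klf2, Errfi1 and the unnamed model BC051019 were also among the highest.

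Cnn1-undetected cells carried more of several genes, among them Rgs5 and Vtn, which were higher in pericytes. Rgs5 stood at 355 CPM in Cnn1-detected against 2751 CPM in undetected cKO cells, and at 331 against 2132 CPM in control cells. Vtn, vitronectin, a secreted pericyte marker, stood at 166 against 816 CPM and 103 against 617 CPM. Higd1b stood at 166 against 321 CPM and 244 against 440.1 CPM, and Casq2, a calcium store protein, at 7.56 against 137 CPM and 33.1 against 164 CPM. Ano1, a calcium-activated chloride channel, stood at 22.7 against 196 CPM and 62.0 against 189.9 CPM, and Notch3 at 309.9 against 577 CPM and 372 against 483 CPM. Kcnj8 and Abcc9, by contrast, had at most 5 UMIs in the contractile members of either library. As sums, cells without Cnn1 thus had part of the pericyte pattern, Rgs5 and Vtn, with Acta2 at 13794 and 12297 CPM, against 26.1 and 23.6 CPM in pericytes. Over all contractile members Rgs5 was uneven, with medians of 4 and 3 UMIs per cell, highest values of 72 and 119, and none in 11 and 23 cells. At least 3 of the 5 pericyte genes were seen in 3 cKO and 7 control contractile members, whose part in the Cnn1 split was not tested.

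**Figure D3:**
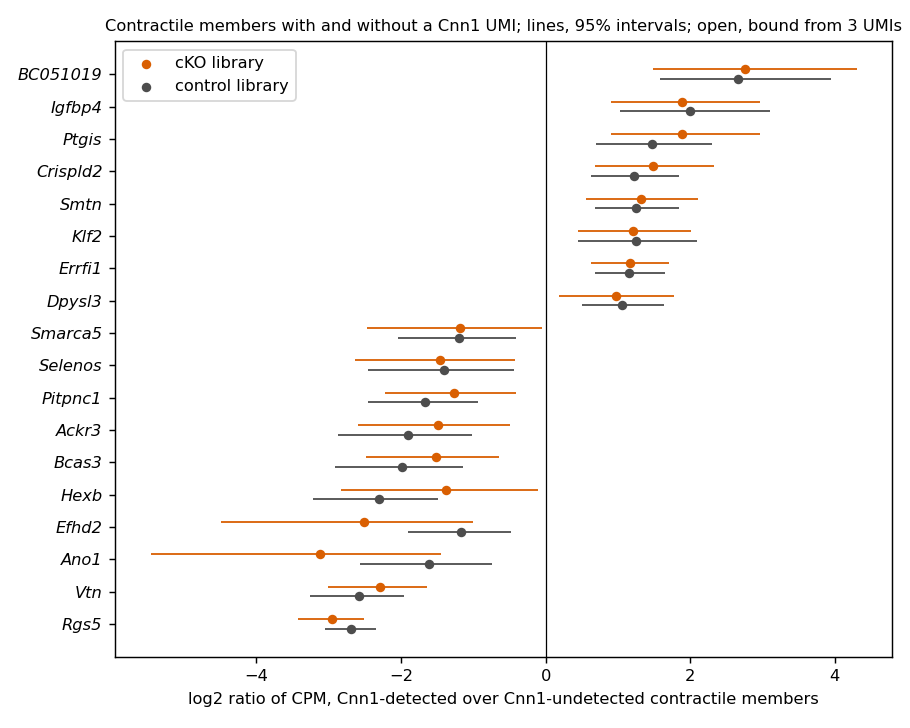
Log2 ratios of CPM between contractile members with and without a Cnn1 UMI for 18 genes near both ends of the ranking, Cnn1 itself left out. Each gene has a cKO point above a control point, with exact 95% intervals. The genes were ranked by the weaker of both ratios, so their points share a side of 0 by choice, with Rgs5 at -2.95 (cKO) and -2.69 (control).

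The cKO and control contractile members were then compared with each other, gene by gene. This contrast was not used by the rule, but with 1 library per group it is a difference between these libraries and carries no test. Of 2492 genes with at least 30 UMIs and 50 CPM in one of them, 33 (1.32%) were higher by 2-fold or more in the cKO library and 59 (2.37%) lower, and the median log2 ratio was -0.01. In 44 of these genes, 1 cell held over 25% of the UMIs on the higher side. Counts this low limit what could be seen: with a mitochondrial limit of 5%, 11 cKO and 11 control contractile members were left.

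The contractile apparatus was near the same level in both libraries. None of 13 thin filament genes was past 2-fold, with a median log2 ratio of -0.08 and a range from -0.86 to 0.16. The log2 ratio was 0.03 (-0.02 to 0.09) for Acta2, -0.08 (-0.14 to -0.02) for Tagln and 0.10 (0.01 to 0.18) for Myl9. Lowest were Synpo2, synaptopodin-2, at 96.6 CPM (29 UMIs) in cKO and 175 CPM (83 UMIs) in control cells, and Cnn1, with a log2 ratio of -0.59 (-1.05 to -0.15). None of 14 myosin genes was past 2-fold either, with a median of 0.06 and Rgs5 highest at 0.48 (0.31 to 0.66). Over all members, the median of the same thin filament list was 0.23 in place of -0.08, which goes with the larger share of contractile cells among cKO members.

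Channels, receptors and regulators showed no gene past 2-fold in either direction. Their medians were -0.06 over 13 channels, 0.05 over 13 receptors and signalling genes and 0.01 over 10 regulators. Pln stood at 1272 CPM in cKO and 1503 CPM in control cells, Npy1r at 499.6 and 427 CPM, Gucy1a1, a subunit of the nitric oxide receptor, at 513 and 505 CPM, and Myocd at 103 and 109.8 CPM. The Notch list had no gene past the fold in 7, with Hes1, a Notch target, highest at 623 against 395 CPM (187 UMIs in each library). In the cKO library 1 cell held over 25% of those UMIs, and with a mitochondrial limit of 5% the log2 ratio of Hes1 was -0.77 in place of 0.66.

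Of 12 genes of PDGF, TGF-beta and angiopoietin signalling, Id1, a target of BMP receptors, was the only one higher, at 127 CPM (38 UMIs) in cKO and 54.9 CPM (26 UMIs) in control cells. Tgfbr3, betaglycan, was the only one lower, at 26.6 CPM (8 UMIs) and 78.1 CPM (37 UMIs). Plxnb2 was at 33.3 CPM (16.0 to 61.3; 10 UMIs) in cKO and 67.6 CPM (46.2 to 95.4; 32 UMIs) in control contractile members, in 9 of 53 and 24 of 75 cells. Its log2 ratio of -1.02 had an interval from -2.21 to 0.04, so equality was within counting error. Cx3cr1 had 2 UMIs in 53 cKO and 56 UMIs in 75 control contractile members, where 11 cells held them. Plxnb1 was at 76.6 and 71.8 CPM, no gene of the semaphorin list reached the minimum, and neither did any of the MHC class II list.

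Matrix and adhesion genes had a median of -0.08 over 27 compared, none higher and 5 lower by 2-fold, among them Fn1, Thbs1, Eln and Ccn2. Fn1, fibronectin, stood at 13.3 CPM (4 UMIs) in cKO and 186 CPM (88 UMIs) in control cells. A single control cell held 70 of the 88 Fn1 UMIs, and 1 cell also held 49 of 82 Thbs1, 27 of 74 Eln and 85 of 170 Ccn2 UMIs. In pericytes, where 87 of 2417 genes (3.6%) were higher in the cKO library and 54 (2.23%) lower, Ccn2 was higher, at 148 CPM in cKO and 6.75 CPM in control cells. Elsewhere the matrix was level, with Sparcl1 at 4266 and 3737 CPM, Itgb1 at 963 and 1035 CPM and Timp3 at 946 and 1001 CPM. In the list of dedifferentiated smooth muscle genes 2 of 8 were lower (Fn1 and Col8a1) and none higher. Vim, vimentin, was at 3147 CPM in cKO and 2183 CPM in control cells, with per-cell medians of 14 and 9 UMIs.

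**Figure D4:**
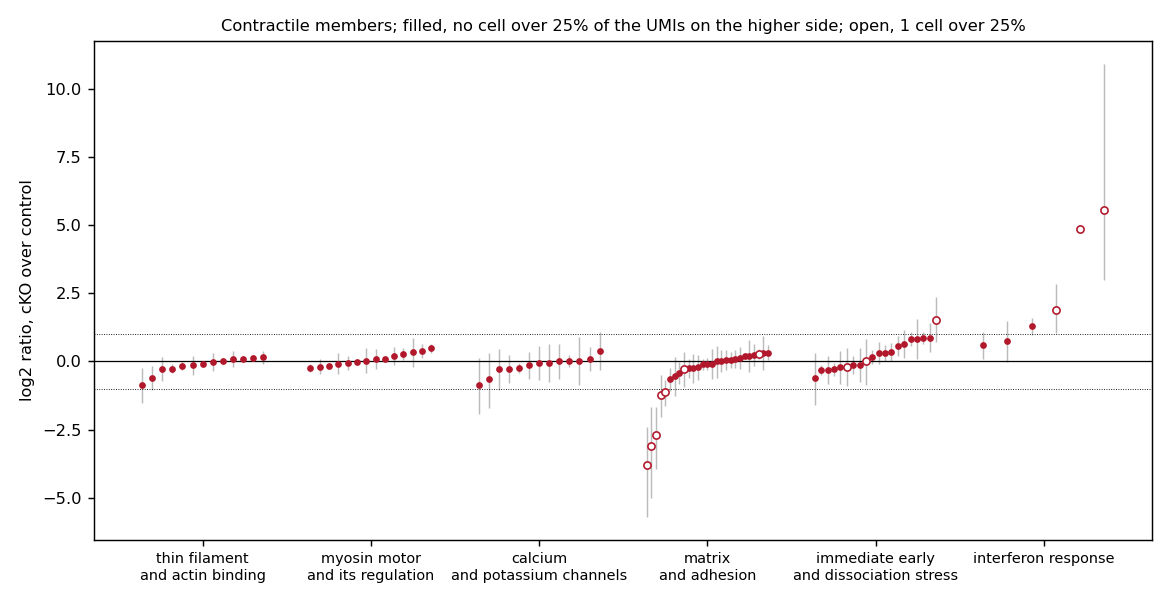
Log2 ratios, cKO over control, in contractile members for the compared genes of 6 lists, with exact 95% intervals as lines and dotted lines at 2-fold. Filled points are genes of which no cell held over 25% of the UMIs on the higher side, and open points are the others. The thin filament, myosin and channel genes lie between the dotted lines, the 5 matrix genes below them are all open, and of the 4 interferon genes above them Ifitm3 alone is filled.

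Interferon response genes were the list with the most genes higher by 2-fold in the cKO library. Of 31 listed genes in the files, 6 could be compared in contractile members, and 4 of those were higher by 2-fold in the cKO library and none lower. Ifitm3, which blocks virus entry, stood at 679 CPM (204 UMIs) in cKO and 279 CPM (132 UMIs) in control cells, a log2 ratio of 1.29 (0.96 to 1.61), with a UMI in 43 of 53 and 56 of 75 cells. At a mitochondrial limit of 5% its log2 ratio was 0.32 (-0.70 to 1.36). Isg15, a ubiquitin-like modifier, stood at 127 CPM (38 UMIs) and 33.8 CPM (16 UMIs), but 1 cKO cell held over 25% of its UMIs. Ifi27l2a (30 UMIs in cKO and 1 UMI in control cells) and Cxcl10 (55 UMIs in 4 cKO cells and none in control cells) rested on fewer cells still. Ifi27 and Bst2 were at log2 ratios of 0.59 and 0.75, from 67 and 33 UMIs in cKO cells.

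Summed over the 31 genes, contractile members held 2112 CPM (634 UMIs) in the cKO and 758 CPM (359 UMIs) in the control library, a log2 ratio of 1.48 (1.29 to 1.67). The median cell held 6 UMIs of these genes in the cKO and 4 in the control library, and the highest cells held 143 and 29. Without the highest cell of each library the log2 ratio was 1.24. At a mitochondrial limit of 5% it was -0.13 (-0.76 to 0.50), on 11 cells in each library, so the difference rested on cells above that limit. The same sum gave log2 ratios of 1.86 (1.79 to 1.92) in ependymal-marked members and 1.15 (0.98 to 1.32) in pericytes. In the remaining members it was 0.07 (-0.47 to 0.58). Outside the mural cells it was 0.85 in endothelial cells, 1.41 in microglia, 1.47 in astrocytes and 1.31 in oligodendrocytes, so the higher sum was not particular to smooth muscle. These last classes were not kept apart from each other, so a cell with markers of several types could count in each. The highest cKO cell held 937 UMIs in endothelial cells, astrocytes and oligodendrocytes alike. Their ratios are therefore not separate observations.

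**Figure D5:**
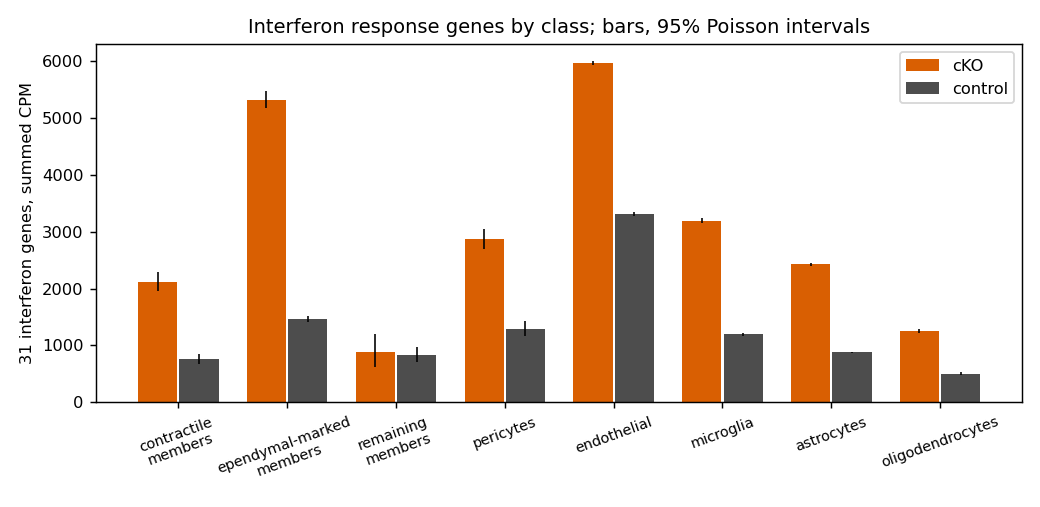
Summed level of 31 interferon response genes in CPM by cell class, with a cKO bar left of a control bar for each and exact 95% Poisson intervals. Contractile members reach 2112 CPM in the cKO and 758 CPM in the control library, and of the 8 classes shown only the remaining members have overlapping intervals.

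Immediate early and stress genes had 1 of 20 past 2-fold, Atf3, at 127 and 44.3 CPM, and 1 cKO cell held over 25% of its UMIs. The list median was 0.24. Fos stood at 1252 CPM in cKO and 690.5 CPM in control cells, with no UMI in 28 of 53 and 37 of 75 cells, and Junb at 993 and 560 CPM. Of 3 MHC class I genes none was past the fold: H2-D1 stood at 179.9 and 97.1 CPM, H2-K1 at 117 and 73.9 CPM and B2m at 147 and 177 CPM. Among 5 p53 targets and CDK inhibitors none was past the fold, with Cdkn1a, p21, at 179.9 and 129 CPM. Of 8 hypoxia and glycolysis genes Pgk1, a glycolytic kinase, was lower at 56.6 CPM (17 UMIs) and 122 CPM (58 UMIs). Nfkbia, a feedback inhibitor of NF-kB, stood at 129.9 and 78.1 CPM.

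Over all genes, in the lists or not, the 10 highest ratios with no cell over 25% of the UMIs were Lap3, Sirt2, Brd8, Ifitm3, Rbm17, Tmsb10, Id1, Tspan12, Ddit4l and Mapk3, from 1.07 to 1.42 on the log2 scale. Tmsb10, a small protein that binds actin monomers, stood at 193 CPM (58 UMIs) in cKO and 82.3 CPM (39 UMIs) in control cells. Lap3, an aminopeptidase, stood at 113 CPM (34 UMIs) and 42.2 CPM (20 UMIs). The 10 lowest were Ep300, Tmem33, Osbpl9, Ptpn1, Ap3m1, Tgfbr3, Cd59a, Bet1l, Col8a1 and Lmbrd1, from -2.41 to -1.51. Ep300, a histone acetyltransferase, stood at 16.7 CPM (5 UMIs) in 4 of 53 cKO cells and 88.7 CPM (42 UMIs) in 32 of 75 control cells. These ends of the list rest on 5 to 58 UMIs a gene, apart from Ifitm3.

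RNA of other cell types differed between the libraries in the same cells. The 8 oligodendrocyte markers summed to 2321 CPM in cKO and 1199 CPM in control contractile members, and 1 cell held 57.5% and 67.3% of those UMIs. The 10 microglial markers summed to 4819 and 5895 CPM, with Gpr34 at 0 in cKO cells, and 9 and 10 of them had a UMI. Sparc, 1 of these 10, is also in the matrix and adhesion list, so the sum need not be microglial RNA alone. P2ry12 had 3 UMIs in cKO and 35 UMIs in control cells. The 7 choroid plexus markers summed to 166.5 and 14673 CPM, 92.8% of the control UMIs being in 1 cell. The 8 endothelial markers summed to 109.9 and 108 CPM with Cdh5 at 0 in both, and the 10 fibroblast markers to 189.8 and 184 CPM with Col1a1, Dcn and Pdgfra among those at 0 in both. The part of this RNA in the differences above was not tested.

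The ependymal-marked members, which follow the rule but not the label, were also compared between the libraries. Of 4085 genes compared, 40 (0.979%) were higher by 2-fold in cKO cells and 19 (0.465%) lower, and 16 of 17 interferon genes and 8 of 19 immediate early genes were among the higher. Bst2, tetherin, stood at 179.8 CPM in 30 cKO and 21.1 CPM in 78 control cells, with a UMI in 26 and 28 of them. Oasl2, an antiviral gene, stood at 124 and 16.8 CPM and Dusp1, a stress-induced phosphatase, at 272 and 56.1 CPM. In the whole sum of 31 genes, 1 cKO cell held 1482 of 5054 UMIs, and without the highest cells the log2 ratio was 1.44 in place of 1.86. Tagln, at 167 CPM in cKO and 358 CPM in control cells, was lower.

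Set beside ependymal cells outside the class, the ependymal-marked members had 12 of 4503 genes (0.266%) higher by 2-fold in both libraries and 49 (1.09%) lower. Myl9, not a rule gene, was among the 12, at 196 against 96.9 CPM in the cKO library and 174 against 39.8 CPM in the control library. Nr2f1, a transcription factor, was at 91.5 against 29.7 CPM and 208 against 88.4 CPM, and Timp4, an inhibitor of matrix proteases, at 86.2 against 36.1 CPM and 111 against 23.3 CPM; both were picked after their values were seen. The endothelial genes Flt1 and Cldn5, which the rule limits, were among the lower. So was Ttr, a choroid plexus gene, at 2.10 against 1397 CPM and 5887 against 128343 CPM. The cells outside the class were taken by ependymal markers with no limit on choroid plexus genes, so they are a mixed class, above all in the control library. In control ependymal-marked members, 1 cell held 76.0% of the choroid plexus marker UMIs. The part of choroid plexus RNA in these contrasts and in the Acta2 shares above was not tested. Members were deeper than the other ependymal cells, whose median was 12304 UMIs in the cKO and 13321.5 UMIs in the control library. The thinned shares above describe the rule at equal depth, and the part of depth in meeting it was not tested.

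Acta2 levels were last ordered over the cell classes, as a description. Contractile members stood highest, at 16297 CPM in cKO and 15927 CPM in control cells. The cells that held 3 or more rule genes with endothelial genes followed at 2154 and 2159 CPM. The remaining members (635 CPM, 425 to 911, in cKO and 270.3 CPM, 199 to 358, in control cells) and the ependymal-marked members (354 CPM, 318 to 394, and 518 CPM, 487 to 549) came next, and their order differed between the libraries. Other ependymal cells (59.4 and 40.5 CPM) and pericytes (26.1 and 23.6 CPM) followed. Microglia (3.85 and 18.8 CPM), astrocytes (8.80 and 21.2 CPM), oligodendrocytes (4.30 and 9.58 CPM) and endothelial cells (3.25 and 7.66 CPM) stood lowest, in an order that differed between the libraries.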

How the data were processed

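Both samples were droplet 3′ RNA libraries. Each deposited matrix gives unnormalised UMI counts for every gene in every barcode. Cell Ranger 7.1.0 produced them, as the submitters' processing notes and the file headers state, with mm10 as genome build per the notes. Which annotation release was used, and whether introns were counted, was not stated. Both list 32285 genes. The members and gene lists were chosen with earlier results of these data known.

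From the counts, cells were selected and split as the report states. Within each library the UMIs of a class were added up and expressed as CPM. Levels carry exact Poisson intervals, shares exact Clopper-Pearson intervals and log2 ratios exact conditional intervals, at 95%, for counting error only. No test was possible with 1 library per group. Genes with at least 30 UMIs and 50 CPM in one library were compared, and a zero was set against 3 UMIs. Named genes are the rule genes, compared list members, the 12 highest and 8 lowest ratios against pericytes and the 10 highest and 10 lowest between libraries, without mitochondrial, ribosomal, haemoglobin, immunoglobulin, unnamed and sex-linked genes and, between libraries, without genes led by 1 cell (over 25% of UMIs). Ratios against pericytes were ranked by the weaker of both libraries, and likewise, after values were seen, the 10 at each end of the Cnn1 split with 30 UMIs in each library. The ratio step was tested on simulated Poisson sums. Doublets were left in; Scrublet in scanpy 1.11.5, run per library, called 3.29% of cKO and 5.44% of control cells, among them 2 and 10 members, and leaving these out was an alternative. Other alternatives changed the UMI floor, mitochondrial limit, rule stringency, gene minimum, scaling, depth and pericyte class. Of 2 planned pericyte classes, the one with few endothelial genes was used as the main one, since most cells of the other held endothelial genes. Sums and intervals were computed in Python 3.11.15 with pandas 2.3.3, scipy 1.17.1 and numpy 2.4.6. A few results that the naming rule covers are not reported here.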

Additional observations from a re-analysis of the deposited data

Results flagged for a closer look

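Cells with 3 or more rule genes and 2 or more endothelial genes, which the rule leaves out, made up 1.22% of kept cKO cells (66 cells) and 0.174% of kept control cells (14 cells). They were looked at because this signal lies outside the cells described and is higher in the cKO than in the control library. Endothelial cells with at most 1 rule gene were also a larger share of the cKO library, at 24.3% against 12.3% of kept cells. The part of that difference in the share of these mixed cells was not tested. The median depth of the mixed cells was 8161 UMIs in the cKO and 21952 UMIs in the control library.

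Ccn2, a secreted matrix protein, was picked out because its difference ran in opposite directions in contractile members and pericytes. Its log2 ratio, cKO over control, was -1.14 (-1.63 to -0.67) in contractile members and 4.46 (2.53 to 7.54) in pericytes, where 9 cKO and 2 control cells had a UMI. Without the highest cell of each library the values were -0.50 and 4.11. At a mitochondrial limit of 5%, with 11 contractile members in each library, the log2 ratio in contractile members was -0.0043 (-1.62 to 1.61), so the opposite direction was not seen there. The difference between the classes was not tested.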

How the results depend on the processing

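No paired analysis was possible because each genotype has 1 library and the libraries share fewer than 2 replicate numbers. Leaving out a replicate was not possible for the same reason. A mitochondrial limit of 5% left 11 contractile members in each library; there, 17 genes were higher by 2-fold in contractile members (33 as reported) and 15 lower (59). The interferon sum then had a log2 ratio of -0.13 in contractile members (1.48) and 1.94 over all members (1.76), and the thin filament median over all members was -0.017 (0.23). Single genes in contractile members had wide intervals there. Isg15 was at -0.0043 (-6.30 to 6.29), Ifi27 at -0.29 (-1.74 to 1.11) and Hes1 at -0.77 (-1.43 to -0.14). Ifitm3 was at 0.32 (-0.70 to 1.36) and Ccn2 at -0.0043 (-1.62 to 1.61). A minimum of 10 UMIs and 20 CPM gave 278 higher and 515 lower genes. Thinning to 1000 UMIs gave 3 higher and 7 lower, a matrix median of 0.12 (-0.08), an interferon sum of 1.70 in contractile members and 1.30 over all members, and a difference in the share of rule members of 0.24 percentage points (-0.56 as reported). Asking for 3 of 4 rule genes gave -0.047 percentage points, a thin filament median over all members of 0.53 and an interferon sum of 1.31. With no endothelial gene allowed that sum was 1.96. With contractile members alone, an alternative chosen after seeing the data, these values were 0.052 percentage points, -0.081 and 1.48. The lower minimum admits more genes by construction, and the other settings leave fewer cells or UMIs; the causes were not tested further. Leaving out Scrublet doublets, a higher UMI floor and scaling by the median ratio moved none of the results recomputed under them beyond their intervals or past 1.5 times a count. Depth limits these values: the contractile members' sums were 300246 UMIs in the cKO and 473592 UMIs in the control library.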
